A study of Mus musculus with 6 samples.

Results

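Collagen genes were examined in the epidermis of newborn mice in which Eed was deleted. They were taken as every gene symbol made of Col, a number, the letter a and a number, leaving out Col17a1, the hemidesmosomal collagen of basal keratinocytes. The rule used names alone and no measured value, but it was chosen with earlier results of these data known. It gave 43 of the 24453 symbols in the count files, of which 11 encode fibrillar collagens, 9 collagens of the basement membrane, 6 chains of the beaded type VI collagen and 17 other collagens.

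The libraries came from back skin at postnatal day 0. Cells that stained for EpCAM and Sca1 and stained strongly for α6-integrin were sorted, a gate for interfollicular epidermis that favours its progenitors. There were 3 libraries labelled control and 3 labelled Eed-/- and titled Eed cKO, a conditional knockout of Eed. The alleles of the controls, the Cre driver and the deleted exons of Eed are not given in these sources. Nor do the labels say that the libraries of a group came from separate animals. The p-values therefore measure the spread between these libraries, which may in part be technical. The labels give no sex, and Eed cKO 2 alone had the sex-linked transcripts of a male, so sex is not balanced between the groups. Eed is a core subunit of Polycomb repressive complex 2, which methylates histone H3 at lysine 27 and keeps developmental genes silent.

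Collagens are the structural proteins of the extracellular matrix. Each molecule is a triple helix of α chains, and glycine recurs at the first place of every Gly-X-Y triplet of a helical stretch. Fibrillar collagens form the banded fibrils of the dermis, where fibroblasts make most of them. Type IV collagen forms the network of the basement membrane under the epidermis, type VII collagen anchors that membrane to the dermis, and type VI collagen forms beaded microfilaments beside it. Basal keratinocytes themselves make several of these chains.

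The repeat that makes a chain a collagen could be read from the coding sequences of all 43 members. Stretches of 63 bases are shown for the 3 best-measured type VI chains and for Col9a3. Of these, Col6a1, Col6a2 and Col9a3 are the called members, and Col6a3 is the uncalled partner of Col6a1 and Col6a2. Col1a1 and Col4a1 are added as members of the fibrillar and basement membrane classes. The stretches come from GENCODE M21 transcripts and run 5′ to 3′, and capitals mark the glycine codons.

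Col6a1: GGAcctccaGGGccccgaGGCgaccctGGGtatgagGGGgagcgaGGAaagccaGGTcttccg
Col6a2: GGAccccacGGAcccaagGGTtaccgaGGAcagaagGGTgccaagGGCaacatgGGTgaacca
Col6a3: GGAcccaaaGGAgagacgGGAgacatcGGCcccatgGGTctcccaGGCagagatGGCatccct
Col9a3: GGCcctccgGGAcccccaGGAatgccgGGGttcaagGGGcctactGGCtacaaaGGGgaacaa
Col1a1: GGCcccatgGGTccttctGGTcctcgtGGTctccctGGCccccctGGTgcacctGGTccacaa
Col4a1: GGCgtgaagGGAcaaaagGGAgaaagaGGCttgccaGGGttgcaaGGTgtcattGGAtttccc

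The longest unbroken repeat set the fibrillar class apart, at 216 to 344 triplets, while the ranges of the other 3 classes overlapped. Col1a1 had 338 Gly-X-Y triplets without a break, and the 9 longest fibrillar chains had 337 to 344. Col4a1 had at most 40 in a row, in a total of 414 in runs of 10 or more, so its helix is interrupted many times. In Col6a1 and in Col6a2 the longest run was 87 triplets, against 45 in Col6a3, whose coding sequence is far longer (3284 codons against 1025 and 1034). Col9a3 had 113, as did Col9a1 and Col9a2, the chains it joins in type IX collagen.

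All 6 libraries held 20998149 to 29998531 counts, of which collagens made up 0.316% to 0.356%. Eed itself stood at 45.1, 41.1 and 53.1 CPM (counts scaled to library size by the TMM method) in control libraries 1, 2 and 3 and at 37.0, 33.7 and 29.2 in Eed cKO 1, 2 and 3. Its level was lower in every Eed cKO library, but the log2 fold change of -0.48 ± 0.19 (SE) was not called (edgeR quasi-likelihood test, adjusted p = 0.252). The counts are per gene, so reads outside the deleted exons are counted too. The reason for the size of this fall was not tested. Of the 7 markers of basal keratinocytes all were tested, and their summed level was 30991 to 38236 CPM in control and 26851 to 36209 in Eed cKO. Most of it was Krt5, and of the 7 only Epcam, a gene of the sort gate, was called (edgeR, higher, 1.70-fold, adjusted p = 0.0433), while Krt15 and Trp63 had groups apart with Eed cKO lower. The 12 markers of dermal fibroblasts summed to 1583 to 2343 CPM in control and 1424 to 1477 in Eed cKO. Most of that sum was Postn and Dcn, and without these, a subset chosen after their values were seen, the other 10 summed to 108 to 164 and 230 to 289 CPM. Most of this was Dpp4, Fbn1 and Thy1, with means of 65.0, 25.4 and 28.6 CPM in control and 133, 71.2 and 43.6 in Eed cKO. Lum, Dpt, Prrx1 and Mfap5 had negative log2 fold changes of -0.54, -0.81, -0.15 and -0.11, none called. Those of Pdgfra and Pdgfrb were positive (0.68 and 2.03, not called), and Twist2 was not tested. One fibroblast marker was called higher (Fbn1, log2 fold change 1.49, adjusted p = 0.000983) and 1 lower (Postn), and none was at 0 in all libraries, while Pdgfra stood at 1.76 to 5.06 CPM over the 6 libraries and Prrx1 at 1.65 to 2.84. Markers of pericytes and smooth muscle summed to 75.3 to 114 CPM in control and 147 to 172 in Eed cKO. Most of this was Cspg4, which was called higher (edgeR, adjusted p = 0.0350). Acta2, Rgs5 and Myh11 had means of 4.90, 1.79 and 1.92 CPM in control and 7.56, 2.20 and 2.68 in Eed cKO. None of them was called, and Des was not tested. Merkel cell markers summed to 0.195 to 1.82 CPM in control and 7.75 to 14.1 in Eed cKO, and of these Sox2 and Isl1 were called higher. Both were at 0 in every control library, so they passed the filter on low counts only through Eed cKO. Krt8 and Krt18 were tested and not called (edgeR, adjusted p = 0.711 and 0.138), and Atoh1 and Krt20 were not tested. The part of other cells in the collagen values was not tested, and in bulk RNA fewer cells of a type and less RNA per cell cannot be told apart.

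Of the 43 collagens, 32 passed the filter on low counts and were tested among 14700 genes. A gene can pass through the group in which it is high, so these 32 are not all members. Col6a1, Col6a2 and Col9a3 rose in Eed cKO, and no collagen fell. These 3 calls are 9.38% of the collagens tested, against 4.21% of all genes tested that were called in either direction, 3.39% higher and 0.816% lower. The other 29 were not called. Log2 fold changes were positive for 20 collagens and negative for 12, or 62.5% positive against 48.7% of all genes tested. The median was 0.24 against -0.01 for all genes tested. An unadjusted p under 0.05 (edgeR) was found for 6 of the 32 collagens and for 2185 of the 14700 genes. The ranges of the groups lay apart for 8 collagens with Eed cKO higher and 2 with Eed cKO lower, which is 25.0% and 6.25% of the 32, against 11.0% and 9.22% of all genes tested (20.3% in either direction). By class, the calls were 0 of 9 fibrillar, 0 of 9 basement membrane, 2 of 4 type VI and 1 of 10 other collagens.

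**Figure D1:**
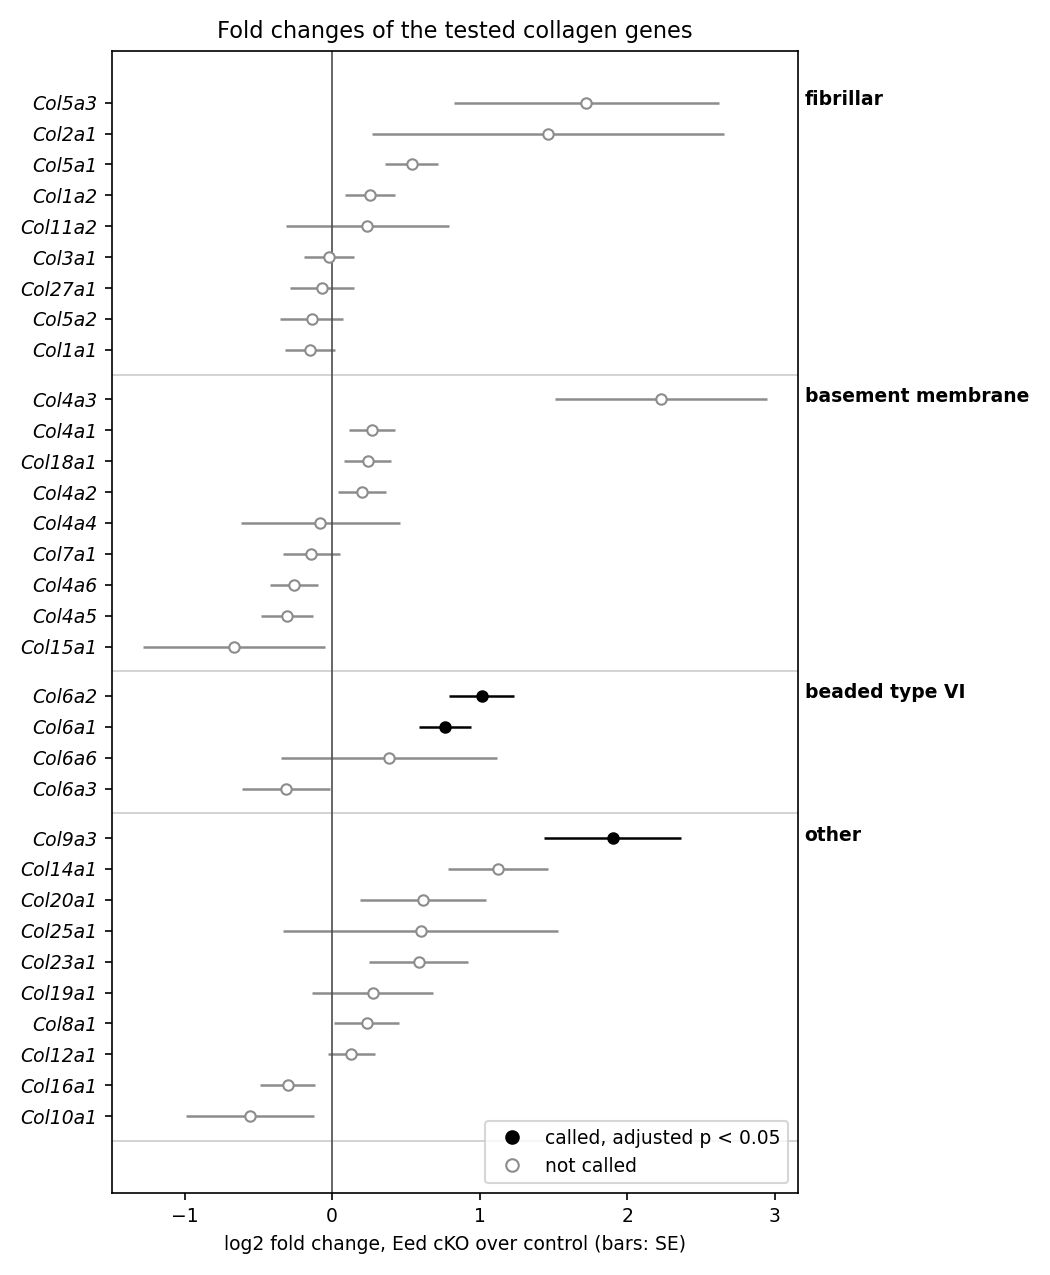
Log2 fold change, Eed cKO over control, with bars for its standard error, for each of the 32 tested collagens grouped by class, with filled points for called genes. Col6a2, Col6a1 and Col9a3 are filled, and the longest bars belong to chains of few counts such as Col2a1 and Col5a3.

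The summed level of all collagens was 3244 ± 236 CPM (SD, n = 3) in control and 3485 ± 111 in Eed cKO, a ratio of 1.07. Col12a1 alone made up 30.9% of it. Fibrillar collagens summed to 423 ± 20.4 and 466 ± 47.4 CPM, basement membrane collagens to 1501 ± 121 and 1521 ± 83.6, and the other collagens to 1247 ± 147 and 1378 ± 111. The largest ratio among the 4 classes was that of type VI, at 72.7 ± 1.35 CPM in control and 121 ± 8.40 in Eed cKO, or 1.66. Its 6 libraries fell into ranges that did not overlap, from 71.2 to 73.7 CPM and from 115 to 130 CPM. Col6a1 made up 50.2% of the type VI sum. Most of the rest was Col6a2, with means of 23.8 CPM in control and 48.1 in Eed cKO. Both genes were called themselves, so the sum is not a separate result for the class. Col6a3 went the other way, with means of 11.2 and 9.01 CPM.

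To compare genes with each other, CPM was divided by the length of each gene's merged exons. Averaged over the 6 libraries, Col12a1 stood first at 68.2 CPM per kilobase, followed by Col7a1 at 54.4, Col18a1 at 39.3, Col4a2 at 33.1 and Col4a1 at 30.3. Col8a1 and Col4a5 followed at 20.9 and 19.5. The highest fibrillar chain was Col1a1 at 13.8, beside Col5a1 at 12.6, Col4a6 at 11.4, Col6a1 at 11.1 and Col3a1 at 9.71. Among the collagens examined, which leave out Col17a1, chains of the basement membrane therefore held 4 of the 5 highest levels per length in these sorted cells. Merged exons include rare long isoforms, so the levels of genes with such isoforms are understated.

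**Figure D2:**
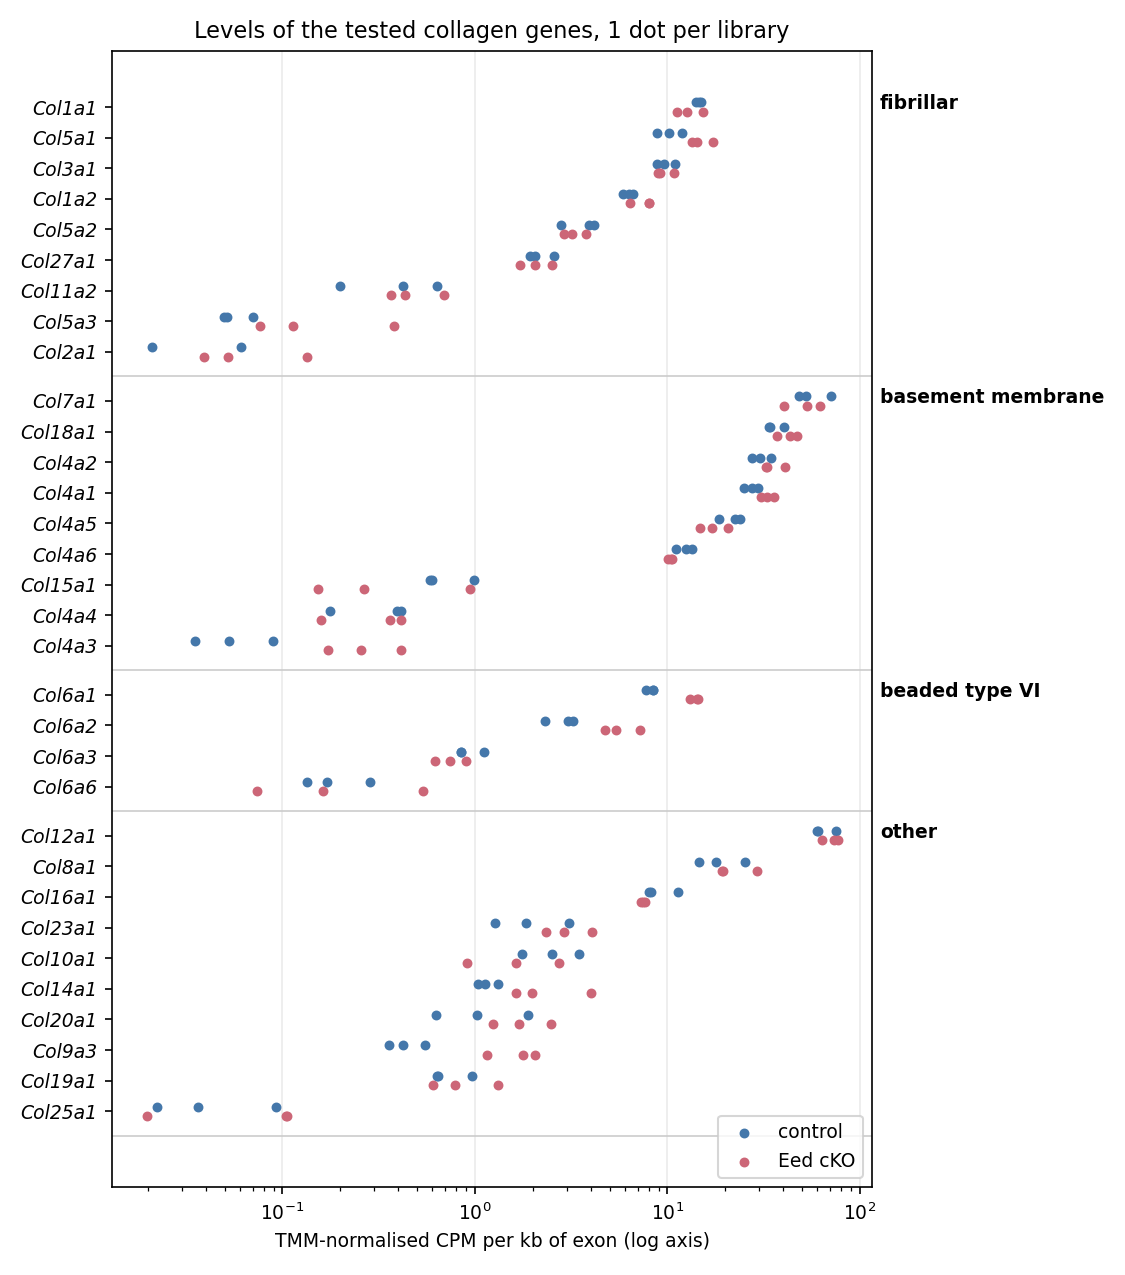
Level of each of the 32 tested collagens in CPM per kilobase of merged exon, on a log axis, by class, with 1 point per library, control in blue and Eed cKO in red. Col12a1 and Col7a1 lie farthest to the right, Col6a1 and Col6a2 have groups that do not overlap, and the 0 of Col2a1 in control 2 cannot be drawn on this axis.

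The fibrillar class held no call. Col1a1 and Col1a2 encode the chains of type I collagen, the main fibril of the dermis. Col1a1 stood at 95.3, 97.6 and 91.9 CPM in control 1, 2 and 3 and at 73.6, 82.5 and 101 in Eed cKO 1, 2 and 3, with a log2 fold change of -0.15 ± 0.17 (SE; adjusted p = 0.790, edgeR). Col1a2 was at 73.1, 82.4 and 78.2 CPM against 79.0, 100 and 100, with 0.26 ± 0.17 (adjusted p = 0.562). Both pairs of ranges overlapped. Col3a1, the fibrillar chain abundant in fetal and newborn dermis, was at 86.3, 94.2 and 107 CPM against 87.8, 106 and 89.7, with a log2 fold change of -0.02 (adjusted p = 0.980).

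Type V collagen sits inside type I fibrils and limits their width. Its chain Col5a1 was at 86.7, 74.6 and 101 CPM in control and at 114, 121 and 146 in Eed cKO. Every Eed cKO library lay above every control library, but the log2 fold change of 0.54 ± 0.18 was not called (adjusted p = 0.125, edgeR). Its partner Col5a2 was at 34.7 ± 7.02 and 31.5 ± 4.17 CPM (SD, n = 3), with a log2 fold change of -0.14. Another type V chain, Col5a3, lay below 1 CPM in every library except Eed cKO 1, where it reached 2.59 CPM. Its log2 fold change was 1.72 ± 0.90 (adjusted p = 0.410).

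The fibrillar chains best known from cartilage were near the limit of counting. Col2a1 held 20 counts over the 3 control and 53 over the 3 Eed cKO libraries. Col11a1, which did not pass the filter, held 5, 4 and 0 counts in control and 56, 8 and 12 in Eed cKO, and Eed cKO 1 thus carried most of them. Col11a2 was at 2.88 ± 1.49 and 3.41 ± 1.18 CPM. Of the cartilage markers, Matn3 had no count in any library, and Acan had none in control and 10 over Eed cKO. Others of that list were expressed: Sox9 was at 66.1 to 125 CPM in control and 142 to 184 in Eed cKO with groups apart, and Runx2 at 1.76 to 11.4 and 11.1 to 16.2 with groups that overlapped, neither of them called (edgeR, adjusted p = 0.177 and 0.202). Col24a1, with 5 and 9 counts, was not tested, and Col27a1 was at 28.5 ± 4.51 and 27.2 ± 5.16 CPM with a log2 fold change of -0.07.

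Among basement membrane collagens none was called. Col7a1, the anchoring fibril collagen, was at 729, 495 and 537 CPM in control and at 638, 546 and 413 in Eed cKO, with a log2 fold change of -0.14 ± 0.20 (adjusted p = 0.836, edgeR). Col18a1, whose end is cut off as endostatin, was at 281, 237 and 240 CPM against 329, 306 and 261, with 0.24 ± 0.16 (adjusted p = 0.555). The groups overlapped for both genes. Its relative Col15a1 was low, at 6.28, 3.80 and 3.71 CPM against 6.01, 1.69 and 0.97, and had a log2 fold change of -0.66 ± 0.62 (adjusted p = 0.718).

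The genes of type IV collagen lie in head-to-head pairs that share a start region, and each pair encodes chains that assemble together. On chromosome 8, Col4a1 and Col4a2 overlap by 22 bases at their starts. Col4a1 was at 187, 206 and 222 CPM in control and at 228, 246 and 268 in Eed cKO, and Col4a2 at 200, 183 and 228 against 219, 215 and 269. Only the ranges of Col4a1 lay apart, and the log2 fold changes were 0.27 ± 0.15 for Col4a1 and 0.20 ± 0.16 for Col4a2 (edgeR, adjusted p = 0.464 and 0.663). Their ratio in counts was 1.01 ± 0.102 in control and 1.06 ± 0.0775 in Eed cKO.

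Col4a5 and Col4a6 lie 1308 bases apart on the X chromosome, and in skin their chains join type IV collagen of the epidermal basement membrane. Col4a5 was at 125, 150 and 161 CPM against 99.0, 114 and 139, with a log2 fold change of -0.31 ± 0.18, and the groups overlapped. Col4a6 was at 88.5, 99.9 and 107 CPM against 84.4, 80.5 and 82.8. All 3 Eed cKO values of Col4a6 lay below the control range, but the log2 fold change of -0.26 ± 0.16 was not called (adjusted p = 0.529, edgeR). Eed cKO 2 differed from the other libraries in sex-linked transcripts, with 8.55 CPM of Xist against 5297 to 7757 elsewhere. Its Y-linked Ddx3y and Eif2s3y were at 121 and 97.2 CPM, against at most 0.39 and 0.15 elsewhere. This is the pattern of a male library among female ones, and the labels give no sex. Without Eed cKO 2 the log2 fold changes of Col4a5 and Col4a6 were -0.28 and -0.23.

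The last pair, Col4a3 and Col4a4, has starts 71 bases apart on chromosome 1 and encodes chains best known from the kidney filter. Col4a4 was at 3.47 ± 1.38 CPM in control and 3.29 ± 1.41 in Eed cKO (SD, n = 3). Col4a3 was at 0.52, 0.89 and 0.35 CPM in control and at 2.55, 1.73 and 4.11 in Eed cKO. Its groups did not overlap, and with 51 counts over control and 198 over Eed cKO its log2 fold change of 2.23 ± 0.72 was not called (adjusted p = 0.116, edgeR), while DESeq2 called it (adjusted p = 0.0211). It shares 563 exonic bases with the transcript C430014B12Rik, whose reads cannot be told apart from its own where strand was not used in counting.

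Of the 4 type VI genes tested, 2 were called, both higher in Eed cKO. A type VI molecule is built from a chain of Col6a1, a chain of Col6a2 and one further chain, most often that of Col6a3. Col6a1 (chr10:76708792-76726168, GRCm38) stood at 36.8, 33.9 and 37.0 CPM in control 1, 2 and 3 and at 57.6, 63.5 and 62.3 in Eed cKO 1, 2 and 3. All Eed cKO libraries lay above all controls, and Col6a1 rose 1.70-fold, a log2 fold change of 0.77 ± 0.18 (SE; adjusted p = 0.0229, edgeR). Col6a2 (chr10:76595762-76623630) was at 25.4, 26.8 and 19.3 CPM in control and at 45.0, 39.6 and 59.8 in Eed cKO. Its groups did not overlap either, and it rose 2.02-fold, a log2 fold change of 1.01 ± 0.22 (adjusted p = 0.0178).

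Col6a3, their usual partner, did not pass the test. It stood at 10.1, 10.1 and 13.4 CPM in control and at 10.7, 8.83 and 7.45 in Eed cKO, with a log2 fold change of -0.31 ± 0.30 (adjusted p = 0.727, edgeR). Its groups overlapped, and 2 of 3 Eed cKO libraries lay below the lowest control library. Col6a6, which can take the place of Col6a3 in a molecule, was at 1.23, 2.62 and 1.56 CPM against 1.49, 4.90 and 0.68 (log2 fold change 0.38, adjusted p = 0.894). Col6a5 had 3 counts and Col6a4 1 count over all Eed cKO libraries, and neither had any in control. Per kilobase of exon, Col6a1 stood at 8.20 CPM in control and 13.95 in Eed cKO, Col6a2 at 2.86 and 5.78, and Col6a3 at 0.936 and 0.753.

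The calls of both genes depended on single libraries, although the size of the difference moved little. Without control 1, control 2, control 3, Eed cKO 2 or Eed cKO 3 the log2 fold change of Col6a1 ran from 0.74 to 0.79 and was no longer called (edgeR, adjusted p 0.0507, 0.0769, 0.0938, 0.0833 and 0.0850), while that of Col6a2 was 0.88 without control 3 (adjusted p = 0.110) and 0.83 without Eed cKO 3 (adjusted p = 0.107), again no longer called.

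**Figure D3:**
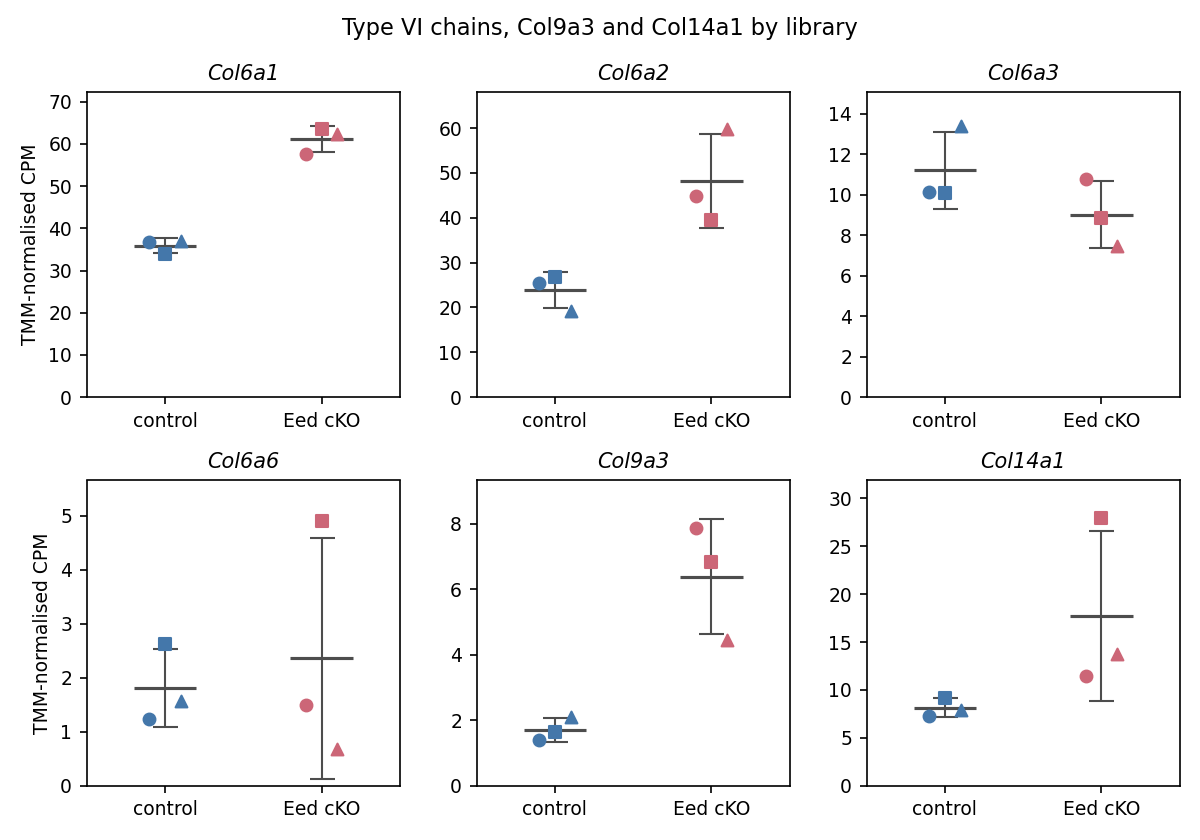
CPM in each library (circle, square and triangle for replicate 1, 2 and 3) for the 4 tested type VI chains, Col9a3 and Col14a1, each on its own axis from 0, with the mean and bars for the SD of 3 libraries. The groups of Col6a1, Col6a2, Col9a3 and Col14a1 are apart, and those of Col6a3 and Col6a6 overlap. Col14a1, which was not called, is highest in Eed cKO 2 at 27.9 CPM.

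Col6a2 and Col6a1 lie on the same strand of chromosome 10, 85.2 kilobases apart, and Col18a1, which was not called, lies 326 kilobases beyond Col6a1. Col6a3 lies alone on chromosome 1 (chr1:90765923-90843971). The sequences before the starts of the 3 genes are shown because both neighbours rose and the gene on the other chromosome was not called. They are RefSeq promoter windows on GRCm38.p6, all on the minus strand, at chr10:76726169-76726294 for Col6a1, chr10:76623631-76623880 for Col6a2 and chr1:90843972-90844221 for Col6a3. The window of Col6a1 is shortened to the part before its first GENCODE exon, and capitals mark a GC box, the motif GGGCGG on either strand.

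Col6a1: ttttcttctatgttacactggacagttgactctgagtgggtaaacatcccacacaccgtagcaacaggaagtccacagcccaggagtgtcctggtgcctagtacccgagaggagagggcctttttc
Col6a2: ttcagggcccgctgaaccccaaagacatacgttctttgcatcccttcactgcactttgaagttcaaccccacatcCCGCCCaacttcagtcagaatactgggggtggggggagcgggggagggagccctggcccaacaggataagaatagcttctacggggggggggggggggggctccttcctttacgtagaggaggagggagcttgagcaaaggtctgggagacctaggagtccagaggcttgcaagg
Col6a3: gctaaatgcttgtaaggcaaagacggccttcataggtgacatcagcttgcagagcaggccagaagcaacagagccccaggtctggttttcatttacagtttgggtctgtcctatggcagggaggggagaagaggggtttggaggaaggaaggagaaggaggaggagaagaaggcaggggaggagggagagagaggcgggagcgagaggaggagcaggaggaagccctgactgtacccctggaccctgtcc

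In the 250 bases before the RefSeq start there were 3 CpG dinucleotides in Col6a1, 6 in Col6a2 and 3 in Col6a3. A GC box was found in that window of Col6a2 and not of the other two, and the motif TATAAA was found in none of the 3. RefSeq windows of 300 bases could be matched to 34 of the 43 collagens. For each collagen only the window of its outermost start was taken. The comparison set holds every window with no such choice, so the sets are not alike. Of these, 22 held a GC box (64.7%), against 35.7% of all 32851 windows, and 4 held TATAAA (11.8%), against 13.6%. The median number of CpG dinucleotides in a window was 12 for collagens and 7 for all windows. These are descriptions of letters in a window and were set beside no measure of binding or histone marks.

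Among the 17 other collagens, 10 were tested and 1 was called. Col9a3 (chr2:180597790-180622189) encodes a chain of type IX collagen, a collagen that coats the surface of cartilage fibrils. It stood at 1.38, 1.63 and 2.11 CPM in control and at 7.87, 6.82 and 4.45 in Eed cKO, or 142 and 478 counts per group. Its lowest Eed cKO library was above its highest control library, and Col9a3 rose 3.74-fold, a log2 fold change of 1.90 ± 0.46 (adjusted p = 0.0326, edgeR). The genes of its partner chains were at or near 0. Col9a1 had no count in any library, and Col9a2 had 14 counts over control and 11 over Eed cKO.

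The call of Col9a3 was lost without any 1 of the 3 control libraries (edgeR, adjusted p 0.0769, 0.0775 and 0.0663), without Eed cKO 1 (0.108) or Eed cKO 2 (0.129), and without both libraries numbered 1 (0.161), with log2 fold changes between 1.60 and 2.08. It shares 234 exonic bases with Tcfl5 on the opposite strand, which had 3 counts over control and 27 over Eed cKO.

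Col12a1 and Col14a1 encode collagens that bind the surface of fibrils in skin and tendon. Col12a1, the most abundant of the collagens examined, was at 1142, 914 and 922 CPM in control and at 1165, 972 and 1119 in Eed cKO. Its groups overlapped, and its log2 fold change was 0.13 ± 0.16 (adjusted p = 0.808, edgeR). Col14a1 was at 7.26, 9.20 and 7.89 CPM against 11.4, 27.9 and 13.8. Every Eed cKO library was above the control range, Eed cKO 2 by far the most, and the log2 fold change of 1.13 ± 0.34 was not called (adjusted p = 0.0884). Without Eed cKO 2 it was 0.64, and without Eed cKO 1 it was 1.36 and called (adjusted p = 0.0367), as it was with DESeq2 (adjusted p = 0.0237) and with no filter on low counts (adjusted p = 0.0208).

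Col16a1, a fibril-associated collagen found near basement membranes, was at 76.7, 55.5 and 54.3 CPM in control and at 50.6, 51.6 and 49.1 in Eed cKO. All 3 Eed cKO values lay below the control range, with a log2 fold change of -0.30 ± 0.19 (adjusted p = 0.523, edgeR). Col8a1, a short-chain network collagen of vessel walls and the cornea, was at 140, 197 and 115 CPM against 152, 151 and 229, with overlapping groups and a log2 fold change of 0.24 ± 0.22 (adjusted p = 0.722). Col10a1, known from the growth plate, was at 8.08 ± 2.70 and 5.50 ± 2.88 CPM (SD, n = 3). The transmembrane collagens Col23a1 and Col25a1 had log2 fold changes of 0.59 and 0.60, and Col20a1 and Col19a1 had 0.62 and 0.28, none of them called. Of the 7 that were not tested, 6 besides Col9a2 had 0 to 23 counts over a group, the most in Col8a2.

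Since the chains of one molecule assemble in fixed proportions, the counts of partner genes were also compared within each library, which needs no scaling between libraries. There were 7 such pairs, and 3 libraries against 3 cannot give a two-sided exact permutation p below 0.1, so no ratio could pass. The ratio of Col1a1 to Col1a2 was 1.30, 1.18 and 1.18 in control and 0.932, 0.825 and 1.00 in Eed cKO. It was lower in all 3 Eed cKO libraries, by 0.41 on the log2 scale (exact permutation p = 0.1, adjusted over the 7 pairs 0.175). The ratio of Col5a1 to Col5a2 was 3.24, 1.997 and 2.53 against 4.11, 3.37 and 4.75, with Eed cKO above control throughout (log2 difference 0.67, exact p = 0.1, adjusted 0.175).

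Within type VI, the ratio of Col6a1 to Col6a3 was 3.63, 3.37 and 2.76 in control and 5.36, 7.19 and 8.36 in Eed cKO (log2 difference 1.08, exact p = 0.1, adjusted 0.175). That of Col6a2 to Col6a3 was 2.51, 2.66 and 1.44 against 4.18, 4.49 and 8.03 (log2 difference 1.32, exact p = 0.1, adjusted 0.175). Neither set of ratios overlapped between the groups. In contrast, Col6a1 to Col6a2 was 1.54 ± 0.339 and 1.31 ± 0.281 (SD, n = 3) and overlapped, with a log2 difference of -0.24 (exact p = 0.5). The head-to-head pairs Col4a1 to Col4a2 and Col4a5 to Col4a6 differed by 0.07 and -0.06 on the log2 scale (exact p = 0.5 and 0.8) and overlapped.

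**Figure D4:**
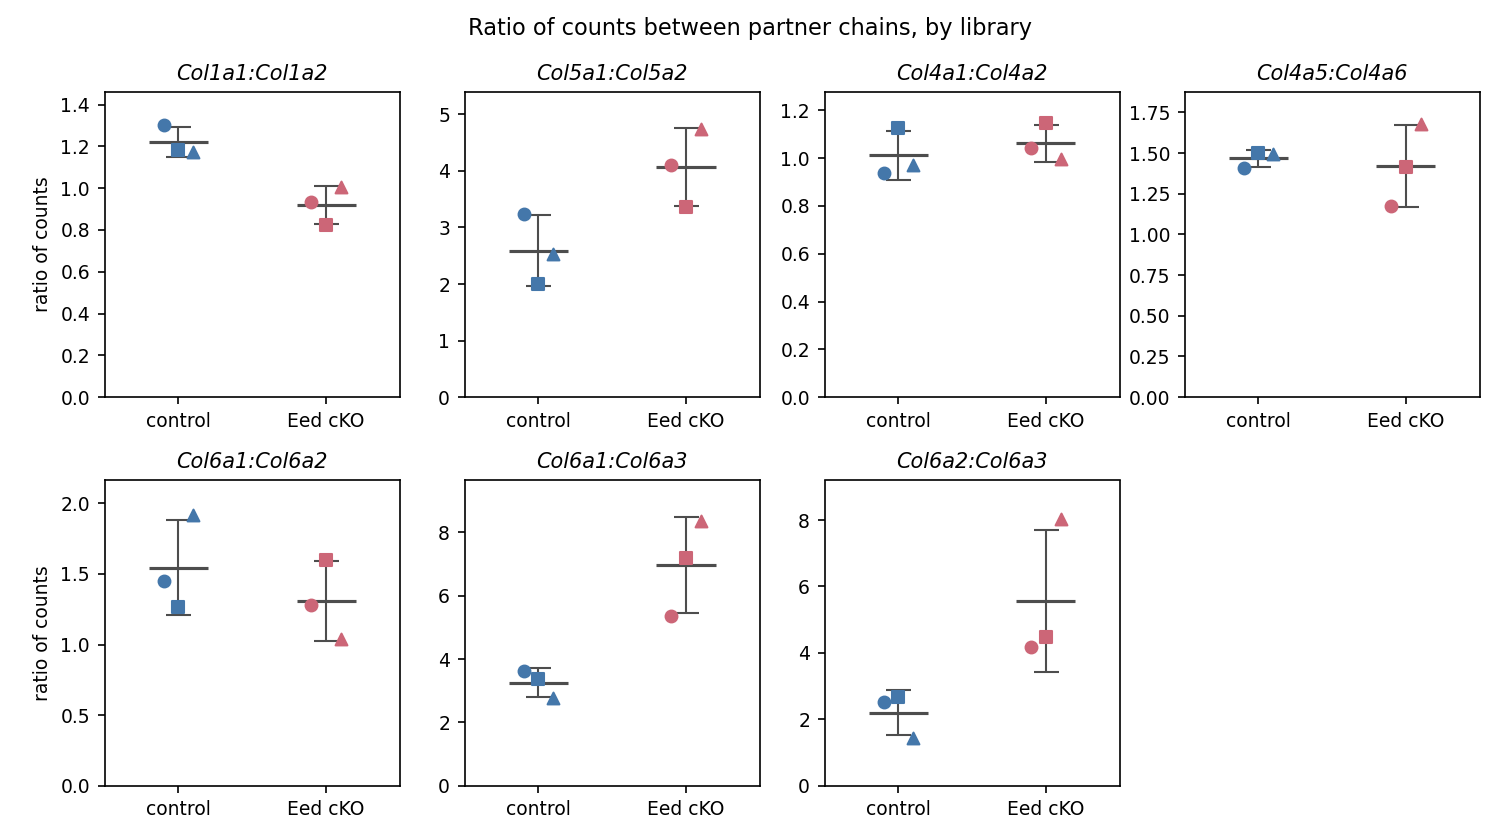
Ratio of counts of 2 partner chain genes within each library (circle, square and triangle for replicate 1, 2 and 3), 1 panel for each of 7 pairs with its axis from 0, with the mean and bars for the SD of 3 libraries. The groups are apart for Col1a1:Col1a2, Col5a1:Col5a2 and both pairs with Col6a3, and overlap in the other 3 panels.

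The genes that modify, process, bind, sense and degrade collagen were read from 6 lists of 101 genes, 87 of them tested. Of these, 3 rose (3.45%) and 2 fell (2.30%), against 3.39% and 0.816% of all genes tested, so the share that rose was near the background. The median log2 fold change was 0.08. The enzymes and chaperones that modify, fold and export chains held no call among 22 tested (median 0.10). P4hb, a subunit of the prolyl hydroxylase that stabilises the helix, differed by 0.06 on the log2 scale (adjusted p = 0.945, edgeR). P3h2, which hydroxylates prolines of type IV collagen, was at 165, 168 and 165 CPM in control and at 111, 114 and 124 in Eed cKO. The groups did not overlap, and the gene was not called, with a log2 fold change of -0.51 ± 0.15 (adjusted p = 0.0834).

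Among 11 tested genes of propeptide removal and crosslinking, 1 fell. Adamts14, a protease that trims the amino end of fibrillar procollagens, was at 334, 243 and 249 CPM in control and at 142, 105 and 111 in Eed cKO. The groups were apart, and Adamts14 fell by 1.21 ± 0.19 on the log2 scale (adjusted p = 0.00164, edgeR). Bmp1, which cuts the other end, was at 109 ± 8.32 and 106 ± 9.29 CPM (SD, n = 3), with a log2 fold change of -0.04.

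Of the 13 fibril-associated matrix genes tested, 2 were called higher, 1 lower and 10 not called, with a median of -0.28, against 4.21% of all genes tested that were called. Fmod, a proteoglycan that binds type I fibrils and steers their assembly, was at 2.43, 3.23 and 2.81 CPM in control and at 29.7, 34.9 and 45.7 in Eed cKO. It rose 13.0-fold, a log2 fold change of 3.70 ± 0.27 (adjusted p = 1.78e-06, edgeR), the largest rise among the genes called in these lists. Fn1, fibronectin, which collagen fibrils assemble on, was at 172, 224 and 194 CPM against 585, 453 and 452 and rose 2.53-fold (log2 fold change 1.34 ± 0.17, adjusted p = 0.000410). Postn, a matrix protein that aids crosslinking, was at 1351, 1880 and 1705 CPM against 843, 932 and 824 and fell by 0.93 ± 0.17 on the log2 scale (adjusted p = 0.00495). The ranges of these 3 genes were apart, and Postn is also on the fibroblast list, where it was the highest marker. Sparc, a collagen chaperone, was at 970 ± 111 and 1092 ± 182 CPM, with a log2 fold change of 0.17.

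No collagen receptor was called among 11 tested (median 0.01). Itgb1, the β chain of the collagen-binding integrins, was at 319, 321 and 349 CPM against 336, 483 and 352 (edgeR, log2 fold change 0.25, adjusted p = 0.586), and Adgrg1, a receptor of type III collagen, had a log2 fold change of 0.53 (adjusted p = 0.112). Of 12 tested genes of degradation and its inhibitors, 1 rose (median 0.21). Timp2, an inhibitor of matrix metalloproteinases, was at 24.7, 20.4 and 28.8 CPM in control and at 45.6, 39.3 and 50.6 in Eed cKO. Its log2 fold change was 0.87 ± 0.21 (adjusted p = 0.0278). The call of Timp2 was lost without control 1, control 2, control 3, Eed cKO 1 or Eed cKO 3 (adjusted p 0.0646, 0.101, 0.0530, 0.0562 and 0.131). Mmp14, a membrane collagenase, and Timp3 had log2 fold changes of 0.01 and 0.38 and were not called.

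The 18 tested partners of collagen in the basement membrane held no call, with a median log2 fold change of 0.06. Lama3, a chain of the main epidermal laminin, was at 1249 ± 193 CPM in control and 1061 ± 124 in Eed cKO (SD, n = 3), with a log2 fold change of -0.23. Hspg2, perlecan, was at 1292, 1181 and 1324 CPM against 1020, 936 and 1066, with every Eed cKO library below the controls and a log2 fold change of -0.33 ± 0.15 (adjusted p = 0.316, edgeR).

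**Figure D5:**
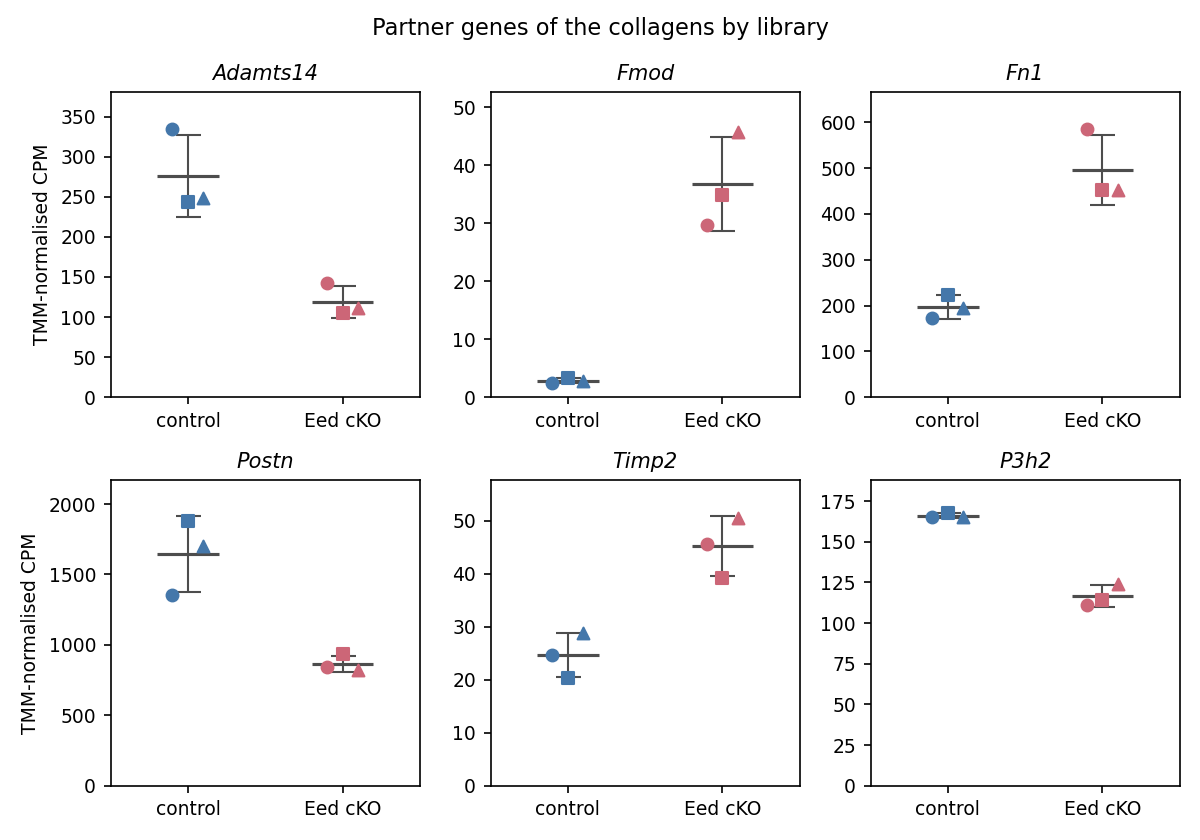
CPM in each library (circle, square and triangle for replicate 1, 2 and 3) for the 5 called genes of the lists and for P3h2, which was not called, each on its own axis from 0, with the mean and bars for the SD of 3 libraries. Fmod, Fn1 and Timp2 are higher in every Eed cKO library than in any control, and Adamts14, Postn and P3h2 lower.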

How the data were processed

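Raw counts per gene symbol, 1 file for each of 3 control and 3 Eed cKO libraries, were deposited by the authors and used as they stand. RNA was amplified before library construction, and reads were 100 bases long and single, per the labels' protocols. The build mm10 stands in the submitters' processing notes beside DESeq2 1.6.3, HTSeq 0.6.1, TopHat2 2.0.13 and Cufflinks 2.2.1, without saying what each did. Whether the counting used strand, and on which annotation, is not given in these sources, so overlapping genes have uncertain counts.

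Genotype was tested with edgeR 4.0.16 (R 4.3.3), by quasi-likelihood F-tests on TMM-scaled counts after filterByExpr, which kept 14700 genes and removed 9753. A gene was called where its p-value, adjusted by Benjamini-Hochberg across those 14700, was under 0.05. Replicates varied with a biological coefficient of variation of 0.334. Standard errors are the log2 fold change divided by the square root of F. Positions, exon lengths and coding sequences came from GENCODE M21. A gene with 3 counts over a group or fewer was given no fold.

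On simulated data with 200 changed genes among 14690 to 14751, the share recovered in this comparison was 3.33% for 1.5-fold changes, 39.3% for 2-fold, 72.0% for 4-fold and 86.7% for 8-fold. Unchanged genes made up 3.21% of the calls.

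The members and gene lists were chosen with earlier results of these data known. Named were Eed, every called collagen, the 3 collagens of each class with the highest CPM per kilobase, up to 4 called genes of each pathway list and its 2 highest by CPM. The other collagens were described to account for every member. The alternatives tried were DESeq2 1.42.0 and limma-voom (limma 3.58.1) in place of edgeR, scaling by RLE or the upper quartile, no filter or one that asks for 1 CPM in 3 libraries, a replicate block, leaving out each library in turn, type IV collagen alone and, chosen after seeing the data, leaving out both libraries numbered 1. Other marker lists were counted: endothelial markers summed to 4.98 to 34.8 CPM in control and 5.94 to 33.6 in Eed cKO, immune markers to 81.3 to 290 and 32.6 to 217, cartilage and bone markers, mostly Sox9, to 77.8 to 128 and 159 to 199, tendon markers to 0.86 to 2.06 and 0.63 to 1.81, Schwann and neural crest markers to 2.36 to 4.76 and 1.42 to 9.78, melanocyte markers to 8.12 to 25.0 and 10.7 to 16.9, skeletal muscle markers to 0.075 to 1.25 and 0 to 2.03, and hair follicle markers to 517 to 813 and 723 to 825. In these lists Krt79 (hair follicle) was called higher and Cx3cr1 (immune) lower.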

Additional observations from a re-analysis of the deposited data

How the results depend on the processing

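RLE and upper-quartile scaling, limma-voom and the filter of at least 1 CPM in 3 libraries called the same 3 collagens as the main settings (Col6a1, Col6a2 and Col9a3), and none of these 4 settings reversed a collagen. With DESeq2, 5 collagens were higher, adding Col14a1 and Col4a3, so that 1 basement membrane and 2 other collagens were called. With no filter on low counts and with the replicate block, 2 other collagens were called, adding Col14a1 to Col9a3, and without both libraries numbered 1 the other class held 0 calls. Whether the replicate numbers pair the libraries is not stated. Correlations of deviations were 0.207, 0.0973 and -0.00748 for libraries of the same number and -0.172 to 0.0941 for different numbers. With 3 libraries a group these values cannot decide it. Over all genes, DESeq2 called 811 higher and 273 lower, no filter 257 lower and the replicate block 269 lower, against 499 and 120. The genes called higher were 74.1% of all calls with no filter and 71.5% with the replicate block, against 80.6% at the main settings. Pathway genes called higher were 7 with no filter, 6 with DESeq2, 5 with limma-voom and 6 with the replicate block, against 3. The receptor Adgrg1 was called with the replicate block (adjusted p = 0.0435) and P3h2 with DESeq2 (adjusted p = 0.0309).

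With 1 library left out in turn, 302 to 456 genes were higher and 35 to 118 lower, 0 to 3 collagens were higher, and 0 to 2 type VI and 0 to 1 other collagens were called. No collagen was called without control 3. Single genes were followed through the settings for Eed, the tested collagens and only some pathway genes. The latter were the called genes, the 2 highest of each list by CPM, Plod2, Serpinh1 and Fkbp10. Changes of sign in other pathway genes were not looked for. The log2 fold changes that changed sign were all of uncalled genes, and ran from -0.103 to 0.066 for Col3a1, -0.098 to 0.68 for Col11a2, -0.22 to 0.065 for Col27a1, -0.38 to 0.25 for Col4a4, -0.29 to 0.043 for Col7a1, -0.72 to 0.82 for Col6a6, -0.093 to 0.51 for Col19a1, -0.102 to 0.16 for P4hb, -0.099 to 0.026 for Bmp1, -0.11 to 0.17 for Mmp14 and -0.19 to 0.071 for the ratio of Col4a5 to Col4a6. Without both libraries numbered 1 they were 0.20 for Col27a1, 0.0016 for Col4a4, 0.038 for Col10a1, -0.049 for Sparc, -0.059 for Mmp14 and 0.041 for that ratio. The cause of these changes was not tested. With 3 libraries a group and this spread, most 1.5-fold changes would not be called, and chains of few counts, such as Col4a3 and Col2a1, are the least certain.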

Other observations

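Several pathway genes had groups that did not overlap and were not called at the main settings. Over the 87 tested, called genes included, the groups lay apart for 14 with Eed cKO higher and 10 with Eed cKO lower. Over all 14700 genes tested they lay apart for 1621 (11.0%) and 1356 (9.22%). The genes below were singled out after their values were seen. Plod2, the lysyl hydroxylase that prepares the ends of fibrillar chains for crosslinks, was at 5.39, 14.2 and 11.4 CPM in control 1, 2 and 3 and at 25.4, 24.6 and 18.0 in Eed cKO 1, 2 and 3 (edgeR, log2 fold change 1.14 ± 0.32, adjusted p = 0.0720). It was called with no filter on low counts, DESeq2, limma-voom, the replicate block and without control 2 (adjusted p 0.00794, 0.0156, 0.0467, 0.0176 and 0.0420). Fkbp10, a prolyl isomerase that works with Plod2, was at 6.62, 4.63 and 7.42 CPM against 18.5, 16.3 and 8.28 (log2 fold change 1.21 ± 0.35, adjusted p = 0.0788). It was called with no filter, DESeq2 and without Eed cKO 3 (adjusted p 0.0241, 0.0158 and 0.0418). Serpinh1, the chaperone of the folded triple helix, was at 44.3, 64.4 and 56.5 CPM against 96.2, 71.4 and 81.6 (log2 fold change 0.59 ± 0.20, adjusted p = 0.124). Lamb1, a laminin chain, was at 50.4, 82.1 and 72.2 CPM against 107, 122 and 105 (log2 fold change 0.71 ± 0.20, adjusted p = 0.0626).

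Others had every Eed cKO library below the controls. Mmp13, a collagenase, held 59 counts over control and 2 over Eed cKO (edgeR, adjusted p = 0.0716). Tnxb, a tenascin that binds collagen fibrils, had a mean of 36.2 CPM in control and 19.2 in Eed cKO (log2 fold change -0.92 ± 0.30, adjusted p = 0.119). Lamb2, another laminin chain, had means of 134.5 and 100.0 CPM (log2 fold change -0.43 ± 0.17, adjusted p = 0.219), and P4ha1, a subunit of the prolyl hydroxylase, 26.6 and 21.7 CPM (log2 fold change -0.30 ± 0.21, adjusted p = 0.593).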
